A study of Leptinotarsa decemlineata with 61 samples.

Results

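Single-exon testes genes of the Colorado potato beetle, Leptinotarsa decemlineata, were the genes of the deposited expression table that the annotation gave as 1 exon and that stood far higher in testes than in any other dissected tissue. They were chosen from the measured values: a mean of at least 20 TPM in testes (transcript abundance corrected for gene length and for the total of the library), and a testes mean at least 4 times that of each of 11 other dissected groups. The rule found 271 genes among 15578 in the table and among the 2655 genes with 1 exon. The same rule found 785 genes with several exons. Since the rule used the testes level, the contrast of testes with the other dissected groups is given here as a description and was not tested.

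RNA was sequenced from 61 libraries of 21 sample types of the beetle strain E06, untreated throughout, and 59 libraries make up the atlas. Testes, genital ducts and aedeagus (the intromittent organ) came from adult males and ovaries from adult females. Fat body, midgut and hindgut came from adult males, adult females and larvae of the last instar (L4), malpighian tubules from adults of both sexes, and hemolymph from L4 larvae. Fertilized eggs and L1, L2 and L3 larvae were taken whole. Adult tissues were dissected 7 days after emergence and L4 tissues on day 19 from egg laying, each from 1 individual, while 5 eggs or 3 younger larvae were pooled per library. Each sample type had 3 libraries in the atlas, except female hindgut and L4 white fat body with 2 and L4 yellow fat body with 1. White and yellow fat body had 2 sequenced libraries each. The authors had removed a female hindgut and a yellow fat body library. Pairs of the sexes and of the L4 fat body parts were joined for the rule, which gave 12 dissected groups including testes.

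Testes hold germ cells at every step from stem cell to sperm, and in insects studied in detail a large set of genes is switched on in spermatocytes and spermatids only. Genes without introns are found among them in several animals. Some arise as retrogenes, which are copies of a processed messenger RNA put back into the genome, and in Drosophila many such copies are active in testes. In whole tissues, a lower level can mean fewer cells of a type or less RNA per cell, and the data cannot tell these apart. The gene identifiers of the table were not paired with names in the files or in the reference table used here (0 matched), so that no function is given for single genes and the labelled tissues were not checked against named marker genes. Positions are printed as deposited, and the sources used here name no build for them.

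Read pairs on genes, recovered from the TPM values, ranged from 9913155 to 18579970 per library with a median of 14953364. For a gene of the members' median length, 3 read pairs corresponded to between 0.226 and 0.553 TPM in a library, and this counting limit applies to every low value below. Several male libraries other than testes stood apart in their level of the testes genes. The 5 with the highest levels were aedeagus replicates 2 and 5, genital ducts replicate 1, male fat body replicate 1 and male hindgut replicate 3, and the next group after testes and the counts of called members are also given without them where these changed. Male midgut replicate 2 and male malpighian tubules replicate 5 stood above the other libraries of their tissues as well, at lower levels.

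The single-exon testes genes had a median testes mean of 257 TPM, from 20.2 to 7561 TPM. The multi-exon testes genes had a median of 161 TPM. Of the 271 genes, 201 had at least 100 TPM and 29 exceeded 1000 TPM. Their summed level was 119144 TPM in testes replicate 1, 133346 TPM in replicate 2 and 121228 TPM in replicate 4, which is 11.9% to 13.3% of all TPM in these libraries. The 10 highest genes alone held 25.6% of that sum. Outside testes the same 271 genes summed to between 135 TPM in a female midgut and 1039 TPM in an ovary library of the atlas.

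**Figure D1:**
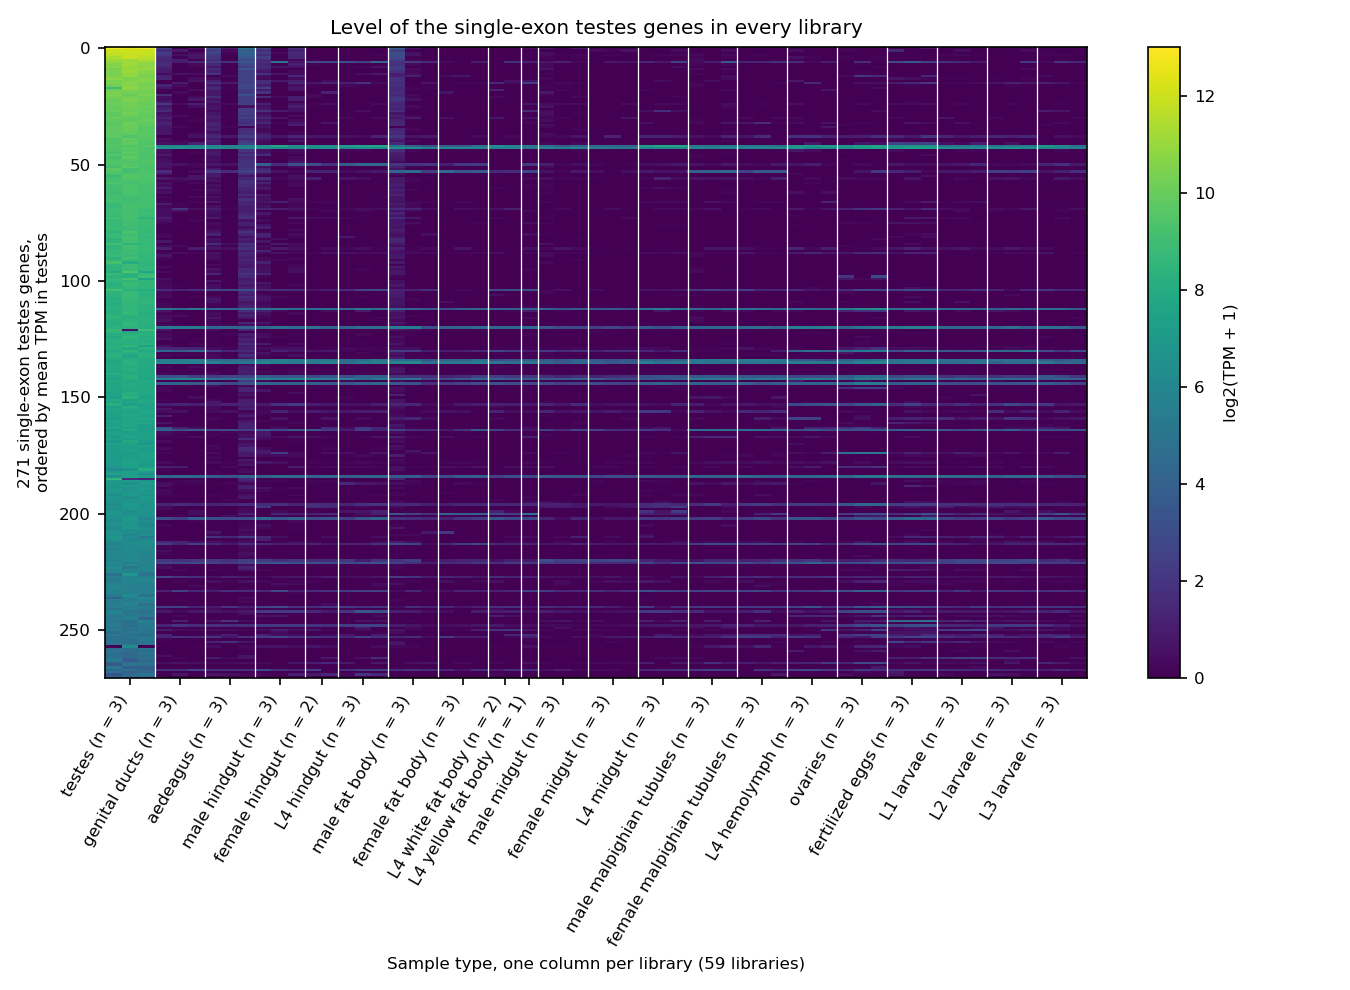
Heat map of log2(TPM + 1) for the 271 single-exon testes genes (rows, ordered by testes mean) in the 59 libraries of the atlas (columns, grouped by sample type, with testes at the left). Testes columns are bright throughout, faint columns appear in aedeagus replicate 5 and male fat body replicate 1, and a few rows, 11 of them above 1 TPM in all 61 libraries, run across every sample type.

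The highest member was LdNA_28886 (255 bp, chromosome 14, 43082359 to 43082613, minus strand), with 9461, 6155 and 7067 TPM in the testes libraries. Its next highest group was aedeagus with a mean of 14.4 TPM, and its highest single libraries outside testes were aedeagus replicate 5 with 34.4 TPM and male fat body replicate 1 with 17.4 TPM. It lay 714 bp from LdNA_28885, a testes gene with 2 exons on the same strand that reached 23428 TPM, the highest testes mean in the table.

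LdNA_936 followed with 3825, 4257 and 3811 TPM, and LdNA_2400 with 3782, 3862 and 3808 TPM. Both varied little between the 3 testes libraries, with a coefficient of variation (CV, the SD as a percentage of the mean) of 6.40% and 1.07%. LdNA_19871 averaged 3541 ± 143 TPM and LdNA_25661 3241 ± 566 TPM (SD, n = 3 each). The remaining members of the 10 highest were LdNA_30975, LdNA_13946, LdNA_7286, LdNA_21163 and LdNA_3882, with testes means between 1753 and 2377 TPM. LdNA_13946 differed from the other 9 in that L4 hindgut and not aedeagus was its next group, at 10.4 TPM against 2041 TPM in testes.

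Between the testes libraries the members had a median CV of 14.6%, against 12.1% in the multi-exon testes genes and 20.03% over all genes. The genes of the table as a whole were lower, with a median testes mean of 7.48 TPM, and CVs were not compared at equal level. A CV under 20% was found for 185 members and a CV over 50% for 12. Testes replicate 2 gave the highest value of the 3 libraries for 163 members (60.1%), and likewise for 61.9% of the multi-exon testes genes.

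A few members were present in some testes libraries and nearly missing in others. LdNA_3103 had 79.6 TPM in testes replicate 2 and 0 TPM in replicates 1 and 4, so that it met the rule through 1 library. LdNA_15647 had 388 TPM in testes replicate 1, against 1.91 TPM in replicate 2 and 1.23 TPM in replicate 4. LdNA_23428 had 422 and 494 TPM in replicates 1 and 4 and 0.572 TPM in replicate 2. These 3 genes had the largest CV of all members, at 173%, 171% and 87.2%, and each testes library came from a different male.

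Close to the limit of 20 TPM, LdNA_19496, LdNA_28582 and LdNA_850 were kept with testes means of 20.2, 20.8 and 21.0 TPM. LdNA_11957, LdNA_22190 and LdNA_31948 were left out with 19.4, 19.4 and 19.3 TPM. Close to the limit of 4-fold, LdNA_31993, LdNA_6983 and LdNA_22649 were kept at 4.05, 4.13 and 4.18 times the next group. LdNA_19214, LdNA_31235 and LdNA_25057 were left out at 3.99, 3.95 and 3.87 times.

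Most members were far above the limits of the rule. The median ratio of the testes mean to the next highest group was 581 for the single-exon genes and 154 for the multi-exon testes genes. These medians include the high male libraries named above and were not computed without them. Aedeagus, which holds some of these libraries, was the next group for 181 members and 294 multi-exon testes genes. A ratio of at least 100 was reached by 220 members (81.2%) and by 429 multi-exon testes genes (54.6%). The bound of 100 was set after the values had been seen, and the 220 genes are called restricted below. For 7 members no read pair was counted in any of the 44 other dissected libraries, among them LdNA_33608, which had 180, 155 and 75.2 TPM in the testes libraries. In all, 90 members exceeded 1 TPM in no library outside testes.

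The 5 members with the largest ratio, after 0.1 TPM was added to both means, were LdNA_19144, LdNA_7376, LdNA_24313, LdNA_20998 and LdNA_5171. LdNA_19144 had 377, 227 and 296 TPM in testes and 1 read pair in the 44 other dissected libraries together. LdNA_7376 had 985, 1166 and 1088 TPM in testes, and its next group, genital ducts, averaged 0.407 TPM.

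The remaining 51 members had a lower ratio and were detected more widely. In 20 of them testes stood less than 8-fold over the next group. Ovaries were the next group for 22 of the 51 and for 35 of all 271 members. Of all members, 13 had a mean over 1 TPM in each of the 11 other groups.

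LdNA_17479 (246 bp, chromosome 8, 48518036 to 48518281, plus strand) was the most abundant member in aedeagus, genital ducts, ovaries, adult fat body, adult midgut, malpighian tubules, eggs, L1 larvae and L2 larvae. It had 727, 821 and 665 TPM in the testes libraries, against 101, 170 and 181 TPM in ovaries. LdNA_6983 (537 bp, chromosome 3, 49504686 to 49505222, plus strand) took that place in hemolymph, L4 fat body, L4 midgut, hindgut of both stages and L3 larvae. It averaged 739 ± 48.8 TPM in testes and 179 TPM in L4 midgut. Male hindgut replicate 4 held 221 TPM of LdNA_6983, against 82.8 to 94.5 TPM in the other adult hindgut libraries.

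The testes rule was met by 10.2% of the 2655 single-exon genes and by 6.07% of the 12923 multi-exon genes. Genes with 1 exon made up 25.7% of the 1056 testes genes and 17.0% of the table. The share was higher for single-exon genes in each of 4 classes of gene length. It was 6.34% of the single-exon and 4.04% of the multi-exon genes up to 500 bp long, and 11.004% and 6.77% of those above that and up to 1000 bp. Above 1000 and up to 2000 bp it was 18.3% and 7.16%, and above 2000 bp 14.9% and 5.46%. The members had a median length of 801 bp, against 486 bp in the other single-exon genes and 1347 bp in the multi-exon testes genes. LdNA_28622 was the shortest at 211 bp, with 1029, 1026 and 1042 TPM in testes, and LdNA_22412 the longest at 6018 bp, with 22.03, 25.8 and 31.1 TPM.

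All chromosomes carried members, but chromosome 6 carried only 3 among its 155 single-exon genes (1.94%). The counts by chromosome leave out LdNA_376, which lay on utg000269l and not on a numbered chromosome. The other 17 chromosomes had between 5.66% and 17.8%, with a median of 10.7%. The multi-exon testes genes were also rare on chromosome 6, with 7 genes or 0.879% of its genes, against 3.43% to 7.03% elsewhere. More generally, 9.55% of the genes of chromosome 6 had a testes mean of at least 20 TPM, against 30.8% to 44.4% of the genes on the others. Among the single-exon genes that did reach 20 TPM in testes, the share that were members was 27.3% to 58.3% on the other 17 chromosomes. It was 60% on chromosome 6, where it rests on only 3 members. The chromosomes were compared by these shares only, since the rule had used the testes values.

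The 3 members on chromosome 6 were LdNA_12110, LdNA_11953 and LdNA_11994. LdNA_12110 had 287, 162 and 180 TPM in testes, against 5.18, 9.28 and 16.5 TPM in ovaries. LdNA_11953 and LdNA_11994, both 423 bp long, averaged 82.1 and 52.0 TPM in testes and had 0 TPM in all 3 ovary libraries. The largest number of members was on chromosome 10 with 25, and the largest share of single-exon genes on chromosome 14 with 17.8%.

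**Figure D2:**
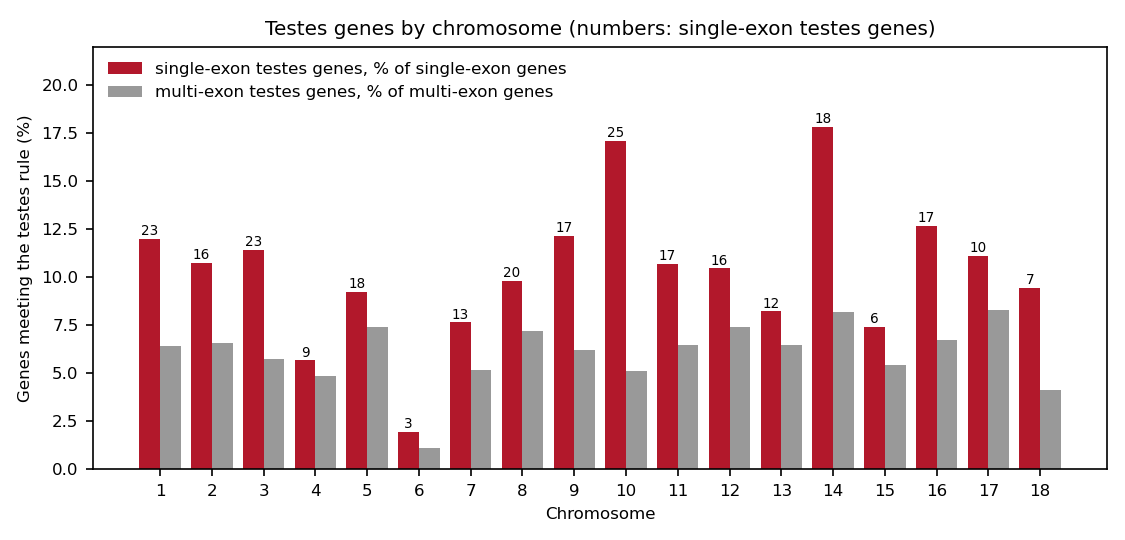
Share of the single-exon genes (red) and of the multi-exon genes (grey) of each chromosome that met the testes rule, in percent, with the number of single-exon testes genes above each red bar. Chromosome 6 has the lowest bars of both kinds, with 3 single-exon members, while chromosomes 10 and 14 have the highest red bars.

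Many members lay inside other genes. For 63 members (23.2%) the whole gene sat within an intron of another gene of the table, against 19.0% of the other single-exon genes, 7.01% of the multi-exon testes genes and 5.87% of all genes. The shortest such gene was taken as the host. With that choice the member and its host were on the same strand in 31 cases and on opposite strands in 32, and LdNA_30948, in introns of 2 genes with 1 on each strand, counts among the 32. The libraries did not keep strand, and the part of unspliced host RNA in the members' values was not tested.

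In testes, 56 of the 63 intronic members stood above their host, and 37 stood at least 10-fold above it. The rule asked at least 20 TPM in testes of members and nothing of hosts, so that this contrast is a description only. All genes of the table had a median testes mean of 7.48 TPM. The intronic members had a median testes mean of 226 TPM and the hosts of these pairs a median of 10.8 TPM. In 41 of the 63 pairs of member and host the host had a mean under 20 TPM in testes, and in 5 it was a testes gene itself. Of all 15578 genes, 1056 met the testes rule, and 9.55% to 44.4% of the genes per chromosome reached 20 TPM in testes. The pairs held 61 different hosts. LdNA_936 averaged 3964 ± 254 TPM (SD, n = 3) within an intron of LdNA_935, which has 10 exons on the same strand and averaged 10.8 ± 1.24 TPM. LdNA_23784 averaged 1214 TPM and its host LdNA_23781 0.435 TPM. LdNA_34075, at 1250 TPM, lay on the opposite strand within LdNA_34074, itself a testes gene with 377 TPM. In the other direction, LdNA_20984 had 334 TPM and its host LdNA_20983 611 TPM. The members that were not in an intron had a median of 267 TPM.

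**Figure D3:**
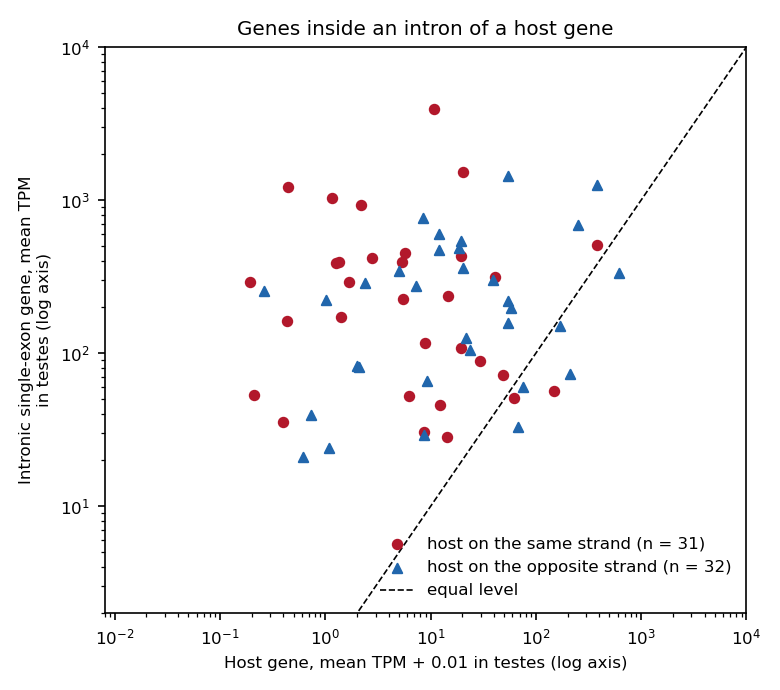
Mean TPM in testes of each of the 63 intronic single-exon testes genes (vertical, log axis) against that of its host gene (horizontal, log axis, 0.01 TPM added), for hosts on the same strand (circles, 31) and the opposite strand (triangles, 32). Points above the dashed line of equal level are the 56 members that exceeded their host. The rule had selected the members, but not the hosts, by their testes level.

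Within 20 kb of another member lay 20 members, intronic ones included, as 10 pairs and no larger run. LdNA_3882 and LdNA_3883 were 89 bp apart on chromosome 2, on the same strand. In testes replicates 1, 2 and 4, LdNA_3882 had 1244, 2067 and 1949 TPM and LdNA_3883 had 491, 1891 and 1413 TPM, with the lowest value of both in replicate 1. LdNA_25660 and LdNA_25661 lay 8944 bp apart on chromosome 13 on opposite strands and were both 985 bp long. LdNA_25660 averaged 671 ± 127 TPM and LdNA_25661 3241 ± 566 TPM (SD, n = 3 each), and whether their sequences share reads was not tested. A testes gene of either kind was the next gene, on one side or the other, of 23.6% of the members, of 23.8% of the multi-exon testes genes and of 12.9% of all genes.

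The restricted genes were not at 0 in all other male libraries. Their summed level was 89.1, 15.8 and 19.8 TPM in genital ducts replicates 1, 4 and 5 and 110, 9.74 and 419 TPM in aedeagus replicates 2, 4 and 5. In male fat body replicates 1, 5 and 7 it was 193, 20.2 and 6.504 TPM, against 2.75 to 6.06 TPM in female fat body. In male hindgut replicates 3, 4 and 5 it was 112, 48.7 and 45.9 TPM, against 11.02 and 14.1 TPM in female hindgut. Male and female libraries did not overlap in fat body, hindgut or midgut, where males had 5.06 to 15.1 TPM and females 1.16 to 3.31 TPM. They did overlap in malpighian tubules, with 7.83 to 23.4 TPM in males and 6.55 to 9.53 TPM in females. In fat body the margin was narrow, between 61 read pairs in male replicate 7 and 39 in female replicate 2. The midgut sums rest on 192, 58 and 65 read pairs in males and on 13, 31 and 27 in females. No share of all genes that separate the sexes in this way is given. The median over all genes tested was also higher in males in fat body, hindgut and midgut, as given below. The multi-exon testes genes with a ratio of at least 100 overlapped in fat body, with 22.4 TPM in male replicate 7 and 25.2 to 47.1 TPM in females. In hindgut and midgut those multi-exon genes did not overlap. Testes themselves held 110819 to 124426 TPM of the restricted genes.

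Counted by detection, 200 of the 220 restricted genes had at least 1 read pair in aedeagus replicate 5, 150 in replicate 2 and 30 in replicate 4. Genital ducts replicates 1, 4 and 5 had 137, 41 and 49. Male fat body replicates 1, 5 and 7 had 177, 64 and 19, against 12 or 13 in female fat body. Male hindgut replicates 3, 4 and 5 had 140, 36 and 106, against 21 and 24 in female hindgut. Male midgut replicates 2, 4 and 5 had 81, 23 and 30, against 10 to 12 in female midgut. Ovaries had 36 to 56 of the restricted genes and fertilized eggs 34 to 47.

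**Figure D4:**
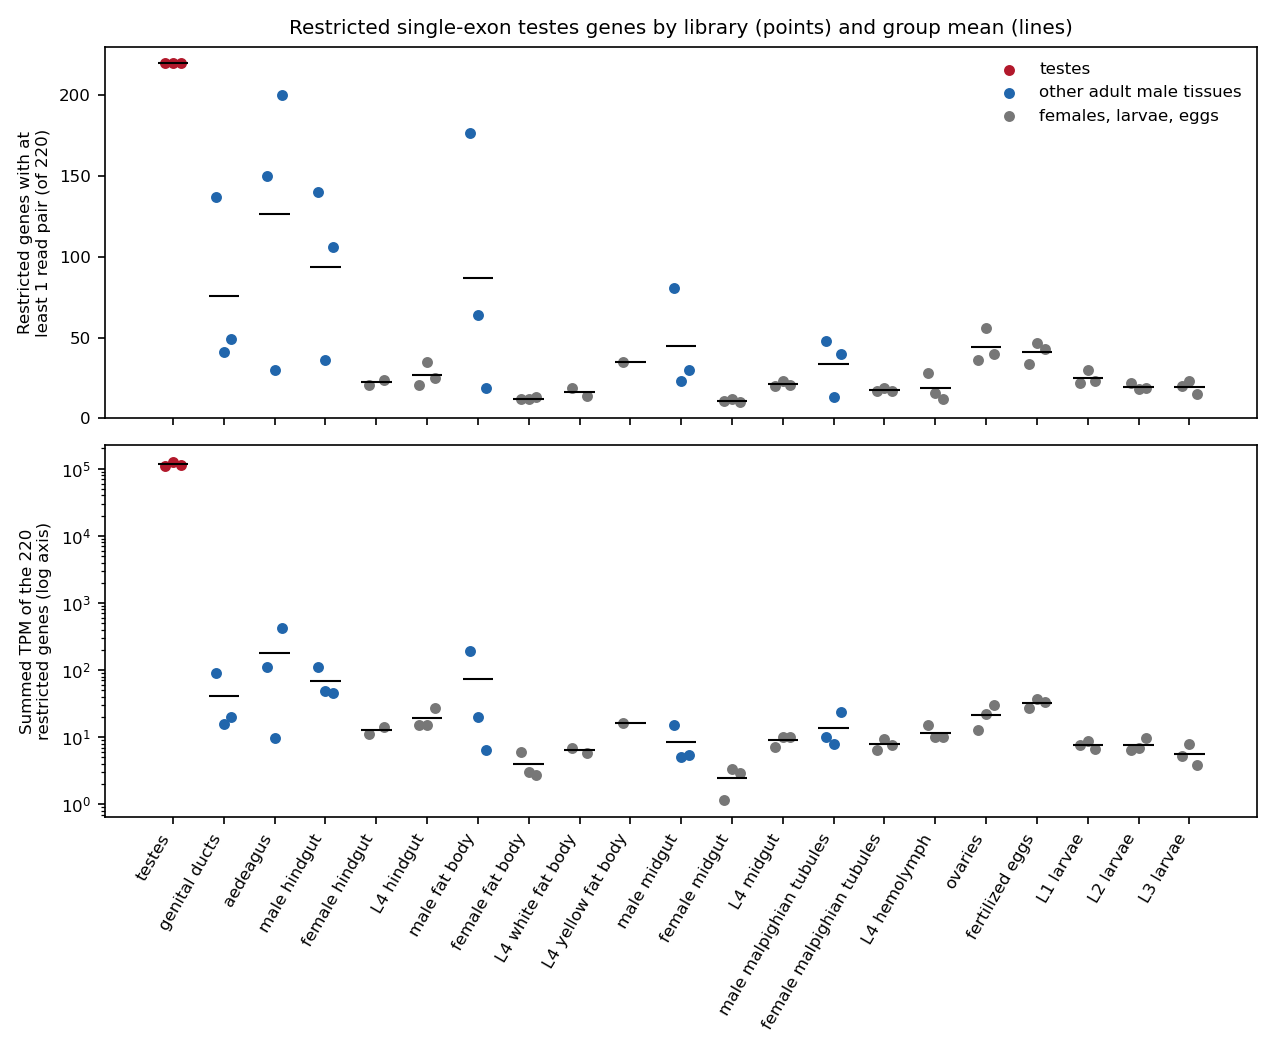
Number of the 220 restricted genes with at least 1 read pair (top) and their summed TPM (bottom, log axis) in each library of the atlas (points, coloured by sex and tissue) with the group mean (lines). Testes libraries hold all 220 genes, and the highest libraries of genital ducts, aedeagus, male hindgut and male fat body stand above their own replicates, up to 200 genes and 419 TPM.

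The levels of the restricted genes in the 5 highest of these libraries were set against their testes levels. In aedeagus replicate 5 they stood at a median of 0.338% of their testes mean, with the middle 50% of genes between 0.220% and 0.458%. The multi-exon testes genes with a ratio of at least 100 stood at 0.358% in the same library. In male fat body replicate 1 the medians were 0.141% for the restricted and 0.150% for those multi-exon genes. Both sets had been chosen by a testes mean at least 100 times that of each other group. That choice caps their group means relative to testes, so the percentages and coefficients are descriptions only. Across the 220 genes, which share a library and its depth, the Spearman coefficient with the testes mean was 0.84 in aedeagus replicate 5. It was 0.82 in male fat body replicate 1 and 0.79 in aedeagus replicate 2. Male hindgut replicate 3 had 0.69 and genital ducts replicate 1 had 0.63. Over all single-exon testes genes, which the rule had also selected by testes level, it was lower. The values were 0.71, 0.64, 0.51, 0.45 and 0.41 in the same order of libraries. In aedeagus replicate 2, male hindgut replicate 3 and genital ducts replicate 1 the lower quartile of the percentage of the testes mean was 0. The part of testes RNA from the dissection in these values was not tested.

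**Figure D5:**
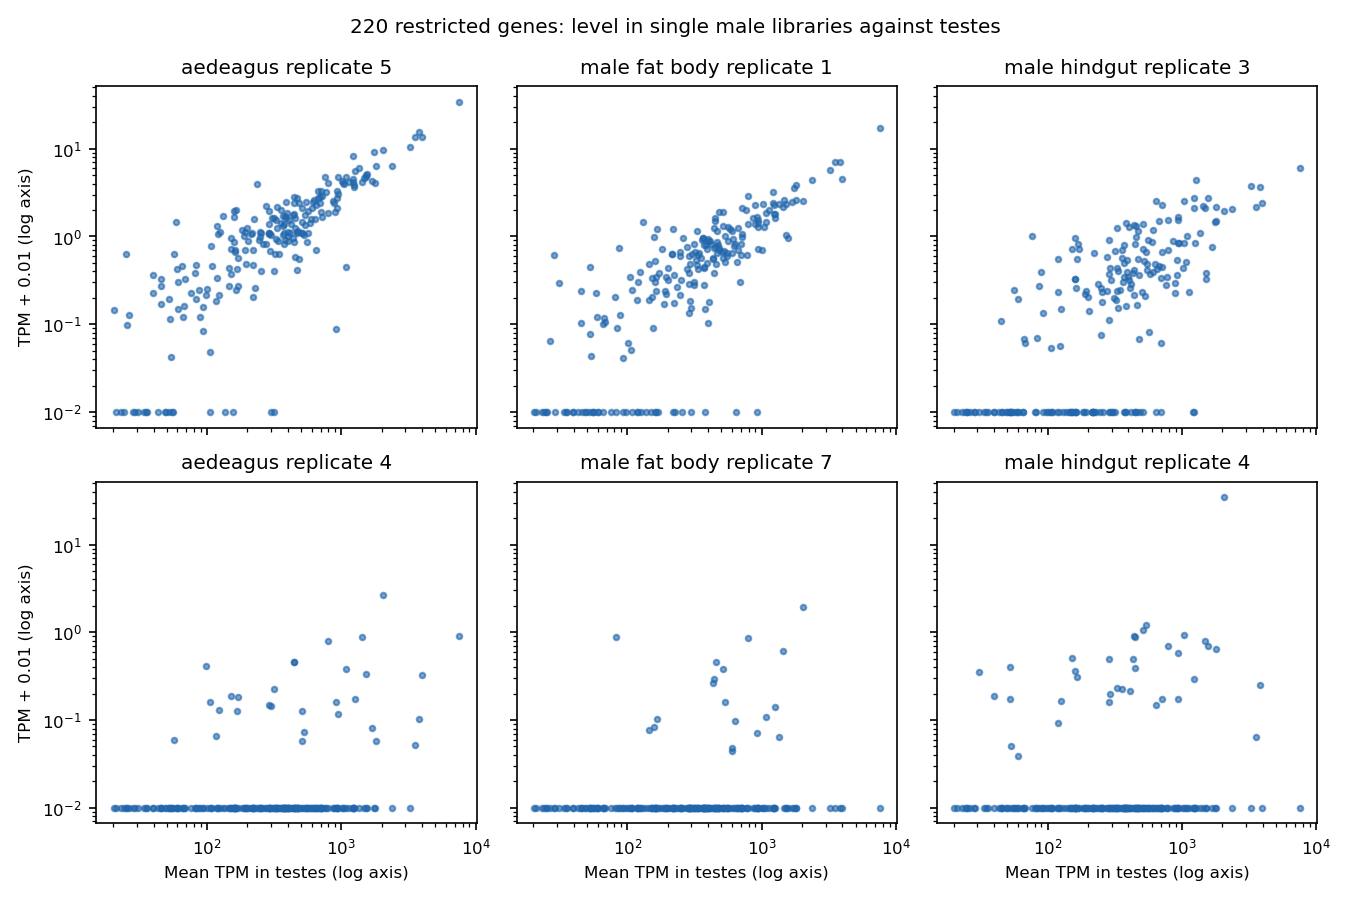
TPM of the 220 restricted genes (vertical, log axis, 0.01 TPM added) in 6 male libraries against their mean TPM in testes (horizontal, log axis), each point 1 gene. In aedeagus replicate 5, male fat body replicate 1 and male hindgut replicate 3 the detected genes rise with the testes level, whereas in aedeagus replicate 4, male fat body replicate 7 and male hindgut replicate 4 most genes lie at 0. The genes had been selected by a testes mean at least 100 times that of each other group.

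These few libraries decided which group came next after testes. Aedeagus was the next group for 181 of the 271 members, but for 77 once aedeagus replicate 5 was left out and for 47 without the 5 libraries named above. Without those 5, ovaries and adult hindgut were the next group for 53 members each. The number of members with a ratio of at least 100 stayed between 218 and 220 under each of these omissions, and the number that met the rule was 271 without aedeagus replicate 5.

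The sexes were compared within each tissue, a contrast that the rule had not used, with limma on log2(TPM + 1) and Benjamini-Hochberg adjustment over all genes tested. Only genes above 1 TPM in at least 2 libraries of a tissue entered, which kept 37 of the 271 members in fat body, 30 in midgut, 46 in hindgut and 34 in malpighian tubules. Of these members, 7, 2, 14 and 3 were restricted genes, in the same order of tissues, and the other restricted genes were not tested. The tested restricted genes had a median log2 difference of males minus females of 0.58, 0.12, 0.86 and 0.16. Over all genes tested it was 0.16, 0.28, 0.08 and -0.11. None of the members tested was called at an adjusted p under 0.05. The background was as low, with 0.0721% of all genes called in fat body, 0.219% in midgut, 0.0634% in hindgut and 0.397% in malpighian tubules. At an unadjusted p under 0.05 there were 2 members in fat body and 3 in each of the other tissues, and limma-voom on the recovered read pairs called 0 in each. Whether the sex effect differed between tissues was tested by the interaction for 69 members, of which 0 were called, against 0.857% of all genes. There 5 had an unadjusted p under 0.05. Without male fat body replicate 7 the interaction called 3 of 69 members, against 1073 of 11871 genes. Without male hindgut replicate 3 it called 2 of 58 members, against 411 of 11797 genes. It called 1 of 68 members without male hindgut replicate 4 (140 of 11794 genes) and 1 of 68 without male malpighian tubules replicate 5 (135 of 11877 genes).

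Genital ducts, which carry sperm away from the testes, were compared with aedeagus in the same way, and 76 members entered. Called were 14, of which 9 were higher and 5 lower in genital ducts. This is 18.4% of the members tested, against 40% of all genes tested (27% higher and 13% lower) and 20.5% of the multi-exon testes genes. Of the 14, 12 were among the 33 members tested with a ratio under 100 and 2 among the 43 restricted genes tested. The ratio itself used the levels in these 2 groups, so this split is a description only. After median-of-ratios scaling, 4 were higher and 5 lower (33.8% of all genes were then called, 16.1% higher and 17.7% lower).

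LdNA_14068 (1023 bp, chromosome 7, 3302570 to 3303592, plus strand) had 47.8, 43.7 and 51.7 TPM in genital ducts, against 21.4, 20.8 and 17.8 TPM in aedeagus. It was higher in genital ducts by 1.21 ± 0.13 on the log2 scale (SE, n = 3 each, limma adjusted p = 0.00102), and the groups did not overlap. LdNA_30892 had 36.4, 38.1 and 37.0 TPM in genital ducts and 20.4, 21.2 and 16.6 TPM in aedeagus, a log2 difference of 0.91 (limma adjusted p = 0.00308). LdNA_24993 had 2.12, 1.33 and 2.17 TPM in genital ducts and 5.74, 5.24 and 7.48 TPM in aedeagus, a log2 difference of -1.32 (limma adjusted p = 0.00522). LdNA_6466 was at 0 in all 3 genital duct libraries and had 3.07, 1.65 and 3.73 TPM in aedeagus (limma adjusted p = 0.00336), and no fold is given because the ducts were at 0. It passed the filter on low values through aedeagus only. The count and its direction depended on single libraries. Without aedeagus replicate 4, 18 of 73 members were called, with 5 higher and 13 lower in genital ducts, against 3484 of 10197 genes. The count was 9 of 60 members without aedeagus replicate 2 (3422 of 10189 genes) and 9 of 51 without aedeagus replicate 5 (2938 of 10147 genes). It was 8 of 63 without genital ducts replicate 1 (3381 of 10259 genes) and 9 of 76 without genital ducts replicate 5 (3041 of 10252 genes). By limma-voom 8 of the 76 members were called, against 3280 of 10404 genes.

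Whole eggs and larvae were outside the rule as well. The restricted genes summed to 27.3 to 37.1 TPM in fertilized eggs, 6.69 to 8.80 TPM in L1, 6.34 to 9.66 TPM in L2 and 3.85 to 7.79 TPM in L3 larvae. Larvae have their own developing gonads, and the sexes were not separated in these pools. Of the 271 members, 45 entered the test across the stages and 226 were too low.

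Between fertilized eggs and L1 larvae, 27 of the 45 members were called, with 3 higher and 24 lower in L1 larvae. The share lower, 53.3%, is near the 50.1% of all genes called lower (67.3% were called in either direction). The median difference was -0.63 for the members and -0.59 for all genes. Median-of-ratios scaling brought the median of all genes to -0.03, and then 14 members were called, with 4 higher and 10 lower, against 57.1% of all genes called in either direction (28.5% higher and 28.6% lower).

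LdNA_5688 (617 bp, chromosome 3, 9742819 to 9743435, plus strand) overlapped in level between eggs and testes, with 21.2, 23.0 and 30.3 TPM in fertilized eggs and 30.6, 25.7 and 49.4 TPM in testes. It had 1.34, 2.50 and 1.37 TPM in L1 larvae, at most 0.581 TPM in L2 and at most 0.375 TPM in L3, a log2 difference of -3.25 ± 0.21 between L1 larvae and eggs (SE, n = 3 each, limma adjusted p = 3.93e-07). In ovaries it averaged 0.674 TPM. Eggs and L1 to L3 larvae together, as further groups to exceed, would remove 1 member and leave 270.

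LdNA_20007, restricted in dissected tissues with 759 TPM in testes, had 5.57, 4.72 and 4.96 TPM in eggs and 0.456, 0.212 and 0.988 TPM in L1 larvae (log2 difference -1.998, limma adjusted p = 1.29e-05). It passed the filter on low values through eggs only. LdNA_29518 did the reverse, peaked in L1 larvae and passed the filter on low values through L1 larvae only. It had 0.211, 0.373 and 0.553 TPM in eggs, 3.46, 5.13 and 6.56 TPM in L1, 0.391 to 0.824 TPM in L2 and 0 to 0.637 TPM in L3 larvae (log2 difference of L1 larvae minus eggs 2.11, limma adjusted p = 2.76e-05). LdNA_28319 had 2.19, 1.67 and 2.29 TPM in eggs and 4.59, 6.15 and 5.92 TPM in L1 larvae (log2 difference 1.10, limma adjusted p = 0.00161).

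Between L1 and L3 larvae, 11 of the 45 members were called, all lower in L3 larvae. That is 24.4% of those tested, against 32.8% of all genes called lower and 42.5% called in either direction. The count higher was 0, against 9.77% of all genes, with 15 members at an unadjusted p under 0.05 in either direction and 0 higher by limma-voom. The direction depended on scaling: after median-of-ratios scaling 6 members were higher and 8 lower, against 44.4% of all genes called (21.8% higher and 22.7% lower). LdNA_29518, which passed the filter through L1 larvae only, was lower in L3 than in L1 larvae by a log2 difference of -2.20 (limma adjusted p = 4.86e-05). LdNA_25319 had 2.92, 4.13 and 5.38 TPM in L1 and 0.0622, 0.0605 and 0.520 TPM in L3 larvae (log2 difference -2.07, limma adjusted p = 0.000109). Without L1 larvae replicate 1, 6 of 45 members were called, against 4462 of 12379 genes. Without L3 larvae replicate 5, 13 members were called, of which 4 were higher in L3 larvae, against 6059 of 12385 genes called and 2143 of them higher.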

How the data were processed

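The authors trimmed 10 bases from the read starts, kept reads of at least 36 bases, mapped them with STAR to a chromosome-level assembly, counted read pairs per annotated gene with featureCounts (Subread 2.0.5) without strand, and deposited TPM values of genes above 1 TPM in at least 2 libraries. The sources used here give neither the build nor gene names. Sample types were taken from the titles, because the tissue field of most labels named another type. Whole read pairs were recovered from TPM and gene length for 100% of values, within 0.01. The lowest chi-square per gene among 59 pairs of replicates was 14.0, and no pair was taken as 1 library. Replicates are separate individuals or pools, per the study's methods.

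The members were found by the rule on group means, without the 2 libraries left out by the authors. Members, comparisons and lists were chosen with earlier results of these data known. Comparisons not used by the rule were tested with limma 3.58.1 (R 4.3.3; the limma-trend method) on log2(TPM + 1), so that low genes are understated, for genes above 1 TPM in at least 2 libraries, with Benjamini-Hochberg adjustment over all genes at 0.05. Adults and L4 larvae of a tissue, or eggs and L1 to L3 larvae, shared 1 fit. Intronic members were found from the deposited exon positions. Python 3.11.15, pandas 2.3.3, numpy 2.4.6 and matplotlib 3.10.9 were used, and the limma fit was tested on simulated data.

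The genes named are the 10 highest in testes, the 5 with the largest ratio, those nearest the limits, pairs within 20 kb, the highest member of each other group, the shortest and longest, the 3 with the largest CV and, in each comparison, up to 2 called in each direction with the smallest adjusted p. The fixed rule allowed 3, and 2 are printed because the genes have no names. LdNA_33608, the intronic genes and those of chromosome 6 were chosen after their values were seen. LdNA_376 is named for its position only. Alternatives covered a pseudocount of 0.1, no filter, median-of-ratios scaling, limma-voom on read pairs, the replicate number as a block, the groups in the fit, the limits of the rule and the omission of each library.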

Additional observations from a re-analysis of the deposited data

Results flagged for a closer look

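In 20 groups of values tested, 6 values stood far from the other libraries of their group. The groups of values share libraries, their measures overlap and each joins the sexes, so that no rate by chance is given. In adult fat body, male replicate 1 had 177 restricted genes with at least 1 read pair, against 12 to 64 in the others, and a summed level of 193 TPM, against 2.75 to 20.2 TPM. In adult midgut, male replicate 2 had 81 of these genes, against 10 to 30, and 15.1 TPM, against 1.16 to 5.43 TPM. In malpighian tubules, male replicate 5 had a sum of 23.4 TPM, against 6.55 to 10.2 TPM. In adult hindgut, male replicate 4 had 221 TPM of LdNA_6983, against 82.8 to 94.5 TPM in the other libraries.

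The 2 libraries outside the atlas also held signal of the single-exon testes genes. Female hindgut replicate 5 had 340 TPM over all 271 members, below the 491 and 473 TPM of the other female hindgut libraries, and 5.16 TPM over the restricted genes, against 11.02 and 14.1 TPM. L4 yellow fat body replicate 4 had 785 TPM, above the 269 to 311 TPM of the other L4 fat body libraries, and 768 TPM of it came from the 51 members with a ratio under 100.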

How the results depend on the processing

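The rule gave between 234 and 307 members under other limits, group medians, scaling or omitted testes libraries, against 271. Without the filter on low values 43 of 139 members were called between eggs and L1 larvae (8706 of 14920 genes), and 14 of 45 after median-of-ratios scaling, against 27 of 45, and 19 to 27 when 1 library was left out. Between L1 and L3 larvae the omission of 1 library gave 6 to 13 called members, against 11, and 4 of the 13 were then higher in L3 larvae. For genital ducts minus aedeagus, 9 members were called after scaling and 8 by limma-voom, against 14, and 8 to 18 without 1 library. The interaction called 1 member without the filter or with female hindgut replicate 5 added, against 0, and 0 to 3 without 1 library. The sex comparisons within tissues called 0 members under every alternative run. Aedeagus was the next group for 77 members without aedeagus replicate 5 and for 47 without 5 libraries, both chosen after seeing the data, against 181, and for 77 to 185 when 1 of those 5 libraries was left out. The causes of these shifts were not tested, apart from the larger or smaller number of genes that enter without the filter or without a library.

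Replicate numbers were not taken to pair the libraries. Deviations of libraries with the same number correlated at -0.05 and 0.39 for genital ducts and aedeagus, and at -0.09 and 0.06 for eggs and L1 larvae. With the replicate number as a block, 4 of 76 members were called between genital ducts and aedeagus (1544 of 10404 genes, against 4158 without the block), 25 of 45 between eggs and L1 larvae (8251 of 12402 genes) and 1 of 69 in the interaction (643 of 11908 genes). LdNA_30892 and LdNA_6466 were then not called for genital ducts minus aedeagus. No paired analysis was possible for the other comparisons, except midgut with 0 called, because their groups share fewer than 2 numbers. Levels near 3 read pairs rest on counting error, and most members are too low outside testes for a test.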
